A study of Mus musculus with 9 samples.

Results

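Lipoxygenases and cyclooxygenases are the enzymes that commit free polyunsaturated fatty acids, above all arachidonic acid, to the lipid mediators of inflammation. The 9 genes described here were taken by symbol from a table of 20603 genes: the lipoxygenases Alox15, Alox12, Alox12b, Aloxe3 and Alox5, the 5-lipoxygenase activating protein Alox5ap, leukotriene C4 synthase Ltc4s, and the cyclooxygenases Ptgs1 and Ptgs2. All 9 were in the table, and 8 of them had enough counts to be tested; Alox12b did not.

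The tissue was conjunctiva, the mucous membrane of the eyelids and of the front of the eye, from C57BL/6j mice. Unchallenged controls and challenged controls were Vegfr3 fl/fl mice, and the challenged knockouts were Vegfr3 fl/fl;Prox1CreERT2 mice, named Vegfr3iLECko. Every group had been given tamoxifen (5 intraperitoneal injections of 75 mg/kg at week 5) and had been immunized at week 6 with 250 µg ovalbumin, 0.3 µg pertussis toxin and 5 mg aluminum hydroxide, so the unchallenged group is an immunized one and not a naive one. Challenge, begun 14 days later, was a daily drop of 250 µg ovalbumin in 5 µL on the right eye over 28 days, with saline on the other eye; which eye or animals gave the unchallenged tissue is not stated in the labels. The Cre is driven by Prox1, a gene of lymphatic endothelium that some other cell types also use, and no group was both knockout and unchallenged. Each group had 3 libraries, and each library pooled tissue of 3 mice.

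Lipoxygenases insert oxygen into a fatty acid at a fixed position. Alox5, handed its substrate by Alox5ap, makes leukotriene A4, which Ltc4s couples to glutathione to give the cysteinyl leukotrienes that are classical mediators of allergy. Alox15, the mouse leukocyte-type enzyme of macrophages, eosinophils and some epithelia, makes hydroxy fatty acids and precursors of lipid mediators that end inflammation, while Alox12 is the platelet-type enzyme, and Alox12b and Aloxe3 act in series on the ceramides of the skin barrier. Ptgs1 and Ptgs2 make prostaglandin H2, the parent of all prostanoids; Ptgs1 is textbook-constitutive and Ptgs2 is induced by inflammatory signals.

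Total counts were between 16490050 and 24746836 per library, so that 3 counts, the limit that a count of 0 allows, correspond to 0.115 to 0.186 CPM, the read count normalised to library size; such limits cover counting error only. Flt4, the gene deleted in the knockouts, was at 13.0, 5.07 and 5.32 CPM in the challenged knockouts, against 18.5, 26.8 and 13.5 CPM without and 13.4, 20.3 and 20.1 CPM with challenge in controls, so that knockout library 1 was only just below the lowest control. Summed markers of conjunctival epithelium were high in all 9 libraries, at 19105 to 35016 CPM. Skeletal muscle markers, from tissue next to the conjunctiva, were at 763 to 3130 CPM in unchallenged controls, 199 to 470 CPM in challenged controls and 1326 to 1562 CPM in knockouts, and adipocyte markers at 1.89 to 41.4, 0.570 to 1.79 and 0.114 to 11.0 CPM. Knockout library 1 stood apart in its summed markers of meibomian gland, the oil gland of the lid, at 380 CPM against 16.7 to 43.4 CPM in the 8 others. Challenged control 1 and knockout 1 had the highest sums of neutrophil markers (473 and 307 CPM against 29.0 to 119 CPM elsewhere). In the text, p-values are two-sided and adjusted by Benjamini-Hochberg over the 15613 genes tested with edgeR's quasi-likelihood test, unless another test is named.

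With no difference between groups taken into account, the 9 genes spanned a wide range of abundance. Per kilobase of annotated exon, the level in unchallenged controls was highest for Alox15 (172 ± 54.2 CPM per kb, SD, n = 3), followed by Alox12 (40.4 ± 13.5), Ptgs1 (12.1 ± 1.95) and Alox5ap (5.28 ± 1.71). Ltc4s (2.06 ± 0.418) and Alox5 (2.04 ± 0.491) came next and did not differ beyond their spread. Ptgs2 was at 0.106 ± 0.0402, Aloxe3 at 0.0542 ± 0.0333 and Alox12b at 0.00525 ± 0.00909 CPM per kb. Alox15 and Alox12 were also the top pair in challenged controls (539 ± 227 and 37.9 ± 8.51 CPM per kb) and challenged knockouts (224 ± 134 and 49.5 ± 15.4 CPM per kb). The conjunctiva's most abundant lipoxygenase transcript by this measure was none of the 9 but Alox12e, an epidermal-type relative of Alox12, at 623 ± 236, 679 ± 277 and 842 ± 365 CPM per kb in the 3 groups. In the RefSeq gene order of GRCm38.p6, Alox12, Alox12e and Alox15 are consecutive protein-coding genes, and so are Aloxe3, Alox12b and Alox8.

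**Figure D1:**
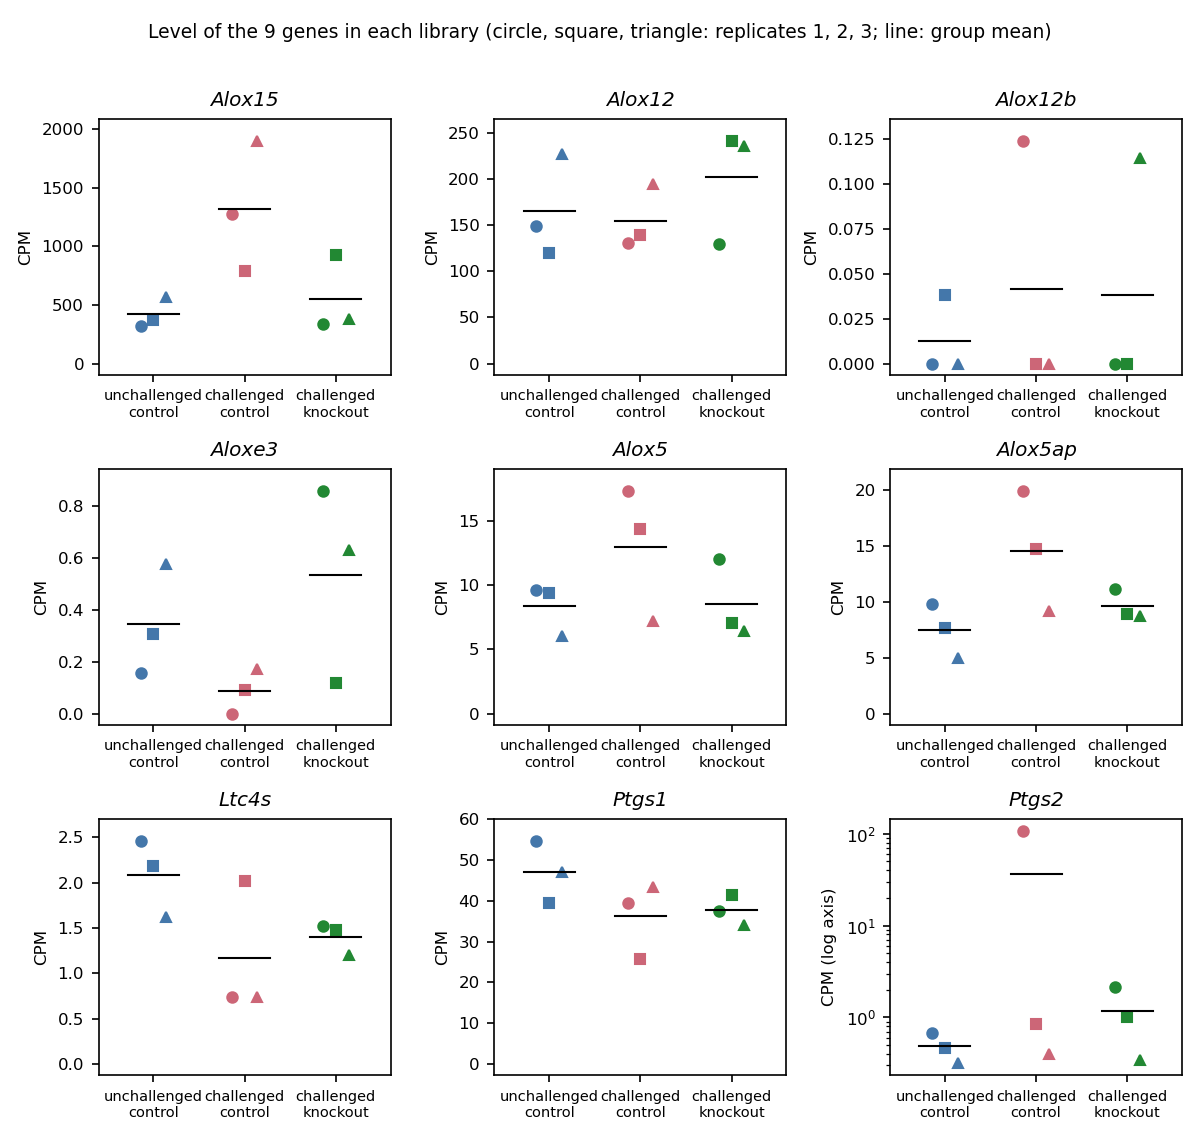
Level of each of the 9 genes in CPM (vertical axes, from 0 except for Ptgs2, which has a log axis) in the 3 groups (horizontal axes); each point is 1 library and each line the mean of 3. All 3 challenged controls lie above all 3 unchallenged controls for Alox15, and Ptgs2 is near 108 CPM in challenged control 1 and at most 2.14 CPM in every other library.

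Alox15 was higher in every challenged control library than in every unchallenged one. Without challenge the control libraries had 319, 376 and 573 CPM, with challenge they had 1279, 787 and 1899 CPM, and the challenged knockouts had 340, 928 and 381 CPM. The challenged controls did not overlap the unchallenged ones, while knockout library 2 lay above challenged control 2, and the other two knockout libraries lay within the range of the unchallenged controls. The mean of the 3 pools per group was thus 423 ± 133 (SD), 1322 ± 557 and 550 ± 328 CPM. The challenged controls were 3.13-fold above the unchallenged (log2 fold change 1.64, SE 0.45), a difference that missed the threshold (unadjusted p = 0.00436, adjusted p = 0.155). It was past the threshold by DESeq2 (log2 1.65, adjusted p = 0.00677) and not with the replicate block fitted to all 9 libraries (log2 1.68, adjusted p = 0.0949). In a block fit of the 2 control groups alone, added once the data had been seen, it also passed (log2 1.60, SE 0.20, adjusted p = 0.0225). In bulk tissue, more cells of a type and more RNA per cell cannot be told apart.

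Between knockouts and controls under challenge, Alox15 was 2.40-fold lower in the knockouts (log2 -1.27, SE 0.44), with overlapping groups and an adjusted p of 0.487 (unadjusted p = 0.0172). Without knockout library 2 the log2 difference was -1.87, and without challenged control 3 it was -0.90; neither passed. Challenged knockouts differed from unchallenged controls by 0.38 (SE 0.44, adjusted p = 0.999), a value that was -0.23 without knockout library 2. The challenge and genotype comparisons share the challenged controls, so their opposite signs are not independent of each other.

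The markers of cells known to use Alox15 moved in part with it. The eosinophil list, of which 4 of 9 genes (Ccr3, Siglecf, Il5ra and Ear2) were in the table, summed to 3.67 to 12.8 CPM in unchallenged controls, 13.9 to 34.3 CPM in challenged controls and 3.77 to 17.4 CPM in challenged knockouts. The granule genes Prg2, Prg3, Epx, Ear1 and Ear6 were not among the table's symbols. All 8 macrophage markers were in the table, and their sums ranged over 610 to 1157, 844 to 1615 and 644 to 1112 CPM. Within the challenged controls the order differed: Alox15 was highest in library 3, where the eosinophil (13.9 CPM) and macrophage sums (844 CPM) were the lowest of that group. The conjunctival epithelium sum peaked in the same library as Alox15 in each group: 28952 CPM in unchallenged control 3, 30754 CPM in challenged control 3 and 35016 CPM in knockout 2. It had the order of Alox15 within the unchallenged controls and the knockouts, but not within the challenged controls. Its group ranges overlapped, with minima of 19105, 20018 and 20051 CPM. Muc4 and Muc5ac of that list peaked in other libraries of each group. The part of any of these cells in the Alox15 values was not tested. By the root mean square difference of centred log2 CPM over the 9 libraries, the genes most like Alox15 among 14157 candidates were Fgf16, a fibroblast growth factor (0.38), Gpr39, a zinc-sensing receptor (0.38), and Rnf225 (0.39), against a spread of 0.87 for Alox15 itself. All 3 were far less abundant than Alox15: Fgf16 was at 0.890 to 4.14 CPM, Gpr39 at 0.467 to 2.79 CPM and Rnf225 at 2.83 to 13.9 CPM.

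Alox12, the platelet-type enzyme, showed no difference that passed. Its level was 149, 119 and 226 CPM in unchallenged controls, 131, 139 and 195 CPM in challenged controls and 129, 241 and 236 CPM in challenged knockouts, and all 3 groups overlapped. The log2 difference with challenge was -0.09 (SE 0.30, adjusted p = 0.961), and it was 0.38 (SE 0.30, adjusted p = 0.751) between knockouts and controls under challenge. Of 7 platelet markers 5 were in the table, and their sum was highest in challenged control 1 (108 CPM) and knockout 1 (93.7 CPM), against 26.8 to 41.4 CPM elsewhere. That excess was mainly in Ppbp, a platelet chemokine, at 75.8 and 56.2 CPM in these 2 libraries and 0.997 to 4.57 CPM in the 7 others. Pf4, another marker of the list, was the highest of its group in both (24.4 and 25.2 CPM), though unchallenged control 1 had 28.5 CPM. Gp1ba and Gp9 were the highest of their group in knockout 1 but not in challenged control 1. Itga2b, a platelet integrin chain, was instead the lowest of its group in both (6.56 and 10.5 CPM), and so was Alox12. The part of platelets in the Alox12 values was not tested. Its neighbour Alox12e stood at 1484, 1277 and 2524 CPM in unchallenged controls, 1309, 1649 and 2803 CPM in challenged controls and 1209, 3159 and 2771 CPM in challenged knockouts. Alox12 and Alox12e were both highest in library 3 of either control group and in knockout library 2. Corneal epithelium markers (3 of 3 in the table) summed to 2484, 1800 and 4300 CPM in the unchallenged group, 1291, 1521 and 2263 CPM in challenged controls and 1948, 3431 and 4122 CPM in knockouts, in the same order as Alox12 within either control group; their part in it was not tested. Less than 1% of the possible 50-base reads of Alox12 (0.372%), and none of those of Alox12e or Alox15, occur in another gene of the reference transcripts.

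The barrier lipoxygenases were barely detected. Alox12b had 1 count in unchallenged control 2, 2 counts in challenged control 1, 2 counts in knockout library 3 and 0 in the 6 other libraries, so no library exceeded the limit of 3 counts and no fold change is given. Aloxe3 had 3, 8 and 11 counts in unchallenged controls, 0, 2 and 3 in challenged controls and 22, 2 and 11 in challenged knockouts. The count of 0 in challenged control 1 allows a level of up to 0.186 CPM. The control groups met at 3 counts, and the knockouts overlapped both; the log2 difference with challenge was -1.89 (SE 1.02, adjusted p = 0.525), and it was 2.54 (SE 0.99, adjusted p = 0.532) between knockouts and controls under challenge. The 22 counts are in knockout library 1, the one with the high meibomian gland sum; without it the latter difference was 2.01. Markers of keratinised lid skin were low throughout, with 4 of 7 in the table and sums of 12.1 to 21.3 CPM, and the skin genes Krt2, Flg and Flg2 were not among the table's symbols.

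On the leukotriene arm, Alox5ap and Alox5 were of similar order in CPM and had the same library on top in each group. Alox5ap stood at 9.84, 7.66 and 4.99 CPM in unchallenged controls, 19.9, 14.7 and 9.18 CPM in challenged controls and 11.1, 8.91 and 8.75 CPM in challenged knockouts. Among the challenged controls library 3 fell inside the unchallenged range, and so did knockout libraries 2 and 3. Challenged controls were 1.95-fold above unchallenged (log2 0.96, SE 0.33), which did not pass (unadjusted p = 0.0165, adjusted p = 0.250). With the replicate block the value was 0.95 (adjusted p = 0.0670), and in the block fit of the 2 control groups alone, added once the data had been seen, it passed (adjusted p = 0.0478). Between knockouts and controls under challenge the difference was -0.60 (SE 0.33, adjusted p = 0.661).

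Alox5 itself stood at 9.63, 9.42 and 6.04 CPM in unchallenged controls, 17.3, 14.4 and 7.19 CPM in challenged controls and 12.1, 7.08 and 6.46 CPM in challenged knockouts. Libraries 1 and 2 of the challenged controls were above all unchallenged ones and library 3 was among them. With challenge its log2 difference was 0.63 (SE 0.37, adjusted p = 0.577), and it was -0.60 (SE 0.37, adjusted p = 0.702) between knockouts and controls under challenge. Both genes lost size without challenged control 1, where the difference with challenge was 0.68 for Alox5ap and 0.37 for Alox5.

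Macrophage markers had the same order as Alox5ap within either control group, at 1157, 922 and 610 CPM in unchallenged and 1615, 1396 and 844 CPM in challenged controls, and in the knockouts they were at 1112, 644 and 791 CPM. The 3 genes most like Alox5ap over the 9 libraries were Tyrobp, a signalling adaptor of myeloid receptors (root mean square difference 0.13), Ccl6, a chemokine (0.16), and Ncf1, a subunit of the phagocyte oxidase (0.16), against a spread of 0.53 for Alox5ap. Whether macrophages, eosinophils or neutrophils account for any of the Alox5ap and Alox5 values was not tested.

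Ltc4s went the other way in its means but not in a way that passed. Its level was 2.46, 2.18 and 1.63 CPM in unchallenged controls, 0.742, 2.02 and 0.741 CPM in challenged controls and 1.52, 1.47 and 1.20 CPM in challenged knockouts. Challenged control 2 lay among the unchallenged controls, and all 3 knockouts lay just below them. With challenge the log2 difference was -0.82 (SE 0.47, adjusted p = 0.561); it was 0.25 (SE 0.48, adjusted p = 0.892) between knockouts and controls under challenge and -0.58 (SE 0.47, adjusted p = 0.999) between challenged knockouts and unchallenged controls. Without challenged control 2 the first of these was -1.50 (adjusted p = 0.189). Mast cells are a main source of this enzyme, and the 9 mast cell markers summed to 180 to 217, 173 to 201 and 169 to 206 CPM in the 3 groups. Kit made up most of each sum (97.3 to 182 CPM), while the mast cell protease Cpa3 ranged from 3.37 to 13.5 CPM and Mcpt4 from 3.55 to 16.2 CPM. The sums thus mainly reflect Kit, whose mean was 157 CPM in unchallenged and 128 CPM in challenged controls. The median log2 difference of the 7 tested markers with challenge was 0.29. In challenged control 2, the highest of its group for Ltc4s, Cpa3 (13.0 CPM) and Mcpt4 (15.8 CPM) were also the highest of that group. So were Tpsb2, Cma1 and Fcer1a, but other markers of the list went otherwise. Hdc (41.3 CPM against 4.44 CPM in challenged control 2), Tpsab1 and Ms4a2 were highest in challenged control 1, and Kit in challenged control 3. The part of mast cells was not tested. An antisense gene, Gm26542, shares 268 exon bases with Ltc4s, and 15.2% of the possible 50-base reads of Ltc4s occur in it; since no source used here gives the strand of counting, the Ltc4s values are uncertain to that extent. The corresponding share was 6.80% for Alox5ap (antisense Gm19719) and 2.63% for Ptgs1 (Gm43621, on the opposite strand).

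Ptgs1, the constitutive cyclooxygenase, had the smallest difference with genotype under challenge among the 8 tested genes. Its level was 54.6, 39.5 and 47.0 CPM in the unchallenged group, 39.5, 25.8 and 43.5 CPM in challenged controls and 37.5, 41.4 and 34.1 CPM in challenged knockouts. All 3 groups overlapped, with challenged control 2 the lowest library. Challenge gave a log2 difference of -0.38 (SE 0.21, adjusted p = 0.552), and it was 0.06 (SE 0.21, adjusted p = 0.950) between knockouts and controls under challenge. It was -0.32 (SE 0.21, adjusted p = 0.999) between challenged knockouts and unchallenged controls.

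Ptgs2, the inducible cyclooxygenase, was high in a single library. It had 1752 counts in challenged control 1, or 108 CPM, against 19 and 7 counts (0.852 and 0.399 CPM) in challenged controls 2 and 3. The unchallenged controls had 13, 12 and 6 counts (0.680, 0.459 and 0.315 CPM) and the challenged knockouts 55, 17 and 6 counts (2.14, 1.003 and 0.343 CPM). Apart from challenged control 1 the 3 groups overlapped. The fitted log2 difference with challenge was 6.22 (SE 1.89, adjusted p = 0.195), and without challenged control 1 it was 0.38 (SE 0.80, adjusted p = 0.965). Likewise the difference between knockouts and controls under challenge was -4.92 (SE 1.74, adjusted p = 0.489) and turned to 0.89 without that library. DESeq2 gave no adjusted p for Ptgs2 in any of the 3 comparisons.

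The genes most like Ptgs2 over the 9 libraries were Rnd1, a small GTPase (root mean square difference 0.59), Clec4e, a pattern recognition receptor of myeloid cells (0.59), and Il1b, the cytokine interleukin 1 beta (0.60), against a spread of 2.37 for Ptgs2. Il1b was at 355 CPM in challenged control 1 and at 5.51 and 1.60 CPM in challenged controls 2 and 3. Knockout libraries 1 to 3 had 14.7, 3.18 and 1.26 CPM of it, and the unchallenged controls had 2.41, 0.957 and 0.630 CPM. The 7 neutrophil markers in the table (of 8; Ly6g was not among its symbols) summed to 473, 114 and 33.4 CPM in challenged controls 1 to 3. In knockout library 1 they summed to 307 CPM, where Ptgs2 was at 2.14 CPM. Their part in the Ptgs2 value was not tested.

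**Figure D2:**
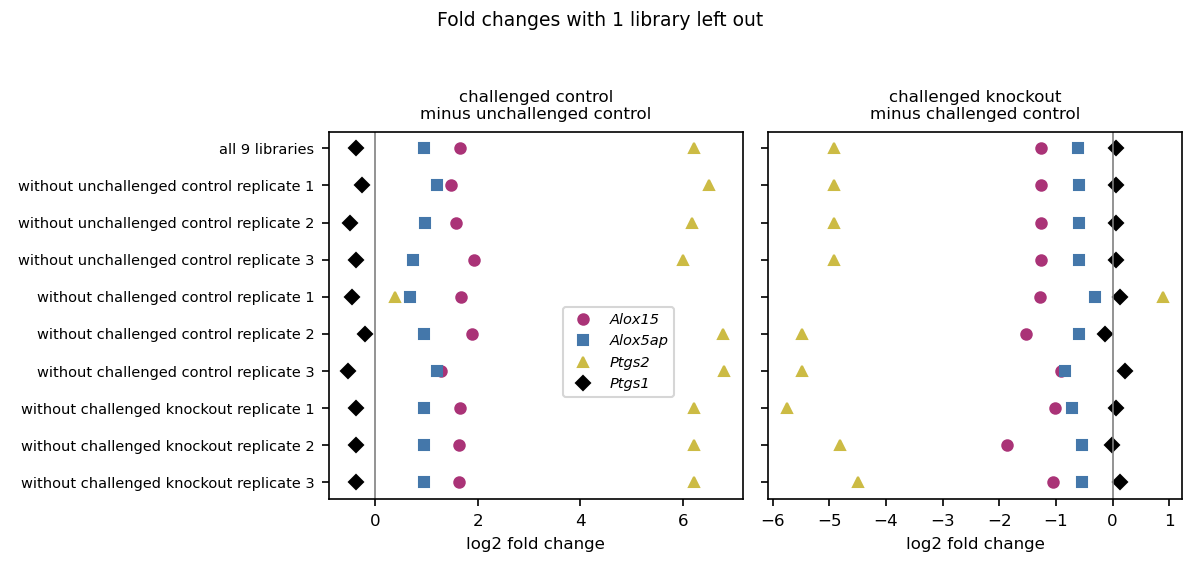
Log2 fold change of Alox15, Alox5ap, Ptgs2 and Ptgs1 (horizontal axes) when all 9 libraries were fitted and when the named library was left out (vertical axis), for challenge in controls (left) and for genotype under challenge (right). Ptgs2 moves from 6.22 to 0.38 on the left and from -4.92 to 0.89 on the right without challenged control 1, while Alox15 stays between 1.29 and 1.93 on the left and between -1.87 and -0.90 on the right.

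The region before the annotated start of the cyclooxygenase genes is given for reference. The excess of Ptgs2 was in a single library, and no link between it and these sequences was tested. The 280 bases below run from 250 before to 30 after the start in the RefSeq table for GRCm38.p6, 5′ to 3′ on the plus strand. This is not the build of the counts, and the Ptgs1 window belongs to a later start than the first one annotated for the gene. They lie at chr1:150099781-150100060 for Ptgs2 and chr2:36230176-36230455 for Ptgs1. Capitals mark a GC box (GGGCGG), a cyclic AMP response element core (ACGTCA) and an E-box (CACGTG), the latter overlapping by 2 bases.
Ptgs2: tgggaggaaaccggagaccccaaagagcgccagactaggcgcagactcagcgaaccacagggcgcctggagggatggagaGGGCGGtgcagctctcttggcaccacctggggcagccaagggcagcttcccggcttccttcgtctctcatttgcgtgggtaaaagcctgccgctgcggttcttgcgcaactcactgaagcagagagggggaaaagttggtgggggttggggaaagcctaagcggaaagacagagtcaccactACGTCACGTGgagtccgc
Ptgs1: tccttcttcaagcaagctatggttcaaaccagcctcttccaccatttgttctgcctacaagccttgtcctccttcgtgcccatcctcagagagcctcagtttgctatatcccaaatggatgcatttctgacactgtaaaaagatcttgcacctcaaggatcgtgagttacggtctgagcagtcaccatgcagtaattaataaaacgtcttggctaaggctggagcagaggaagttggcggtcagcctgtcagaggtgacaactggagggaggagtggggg

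In the Ptgs2 window the GC box lies at bases -170 to -165, the ACGTCA at 13 to 18 and the CACGTG at 17 to 22, counted from the annotated start. Neither TATAAA nor CCAAT was found there on either strand, and none of the 5 motifs was found in the Ptgs1 window. Of 32851 windows of this length in the table, 34.7% held GGGCGG on either strand, 7.26% ACGTCA, 6.79% CACGTG, 36.1% CCAAT and 13.1% TATAAA. The Ptgs2 window was 61.4% and the Ptgs1 window 49.6% G and C. These matches are letters in a window and not measured sites. Whether transcription begins at the annotated start was not tested, so the positions are relative to that start only. A motif not found may lie outside the window. RefSeq windows were also found for Alox5, Ltc4s, Alox12 and Alox12b and are not printed.

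Counted together, 0 of the 8 tested genes passed the edgeR quasi-likelihood test with challenge, where 10 of all 15613 genes (0.0640%) did. Of the 8, 3 had an unadjusted p under 0.05 (Alox15, Alox5ap and Ptgs2), against 12.4% of all genes. DESeq2 called 1, Alox15, and 4.66% of all genes with an adjusted p. With the replicate number as a block, 1.71% of all genes passed and 0 of the 8, and in the block fit of the 2 control groups alone 3.12% of all genes and 2 of the 8 did. Groups did not overlap for 1 of the 8, Alox15, on the higher side, where 7.21% of all genes did so, and for 0 on the lower side, where 8.50% did. A single gene of 8 does not set the group apart from all genes. The median log2 difference of the 8 was 0.27 against -0.01 for all genes tested.

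Between knockouts and controls under challenge, 0 of the 8 passed and 0 of all genes (0%), and DESeq2 called 0 of the 8 as well. An unadjusted p under 0.05 was found for 3 of the 8, Alox15, Ptgs2 and Aloxe3, and for 8.49% of all genes; DESeq2 called 1.58% of all genes. All 8 overlapped between these groups, whereas 6.70% of all genes were higher and 6.24% lower without overlap. Comparing challenged knockouts with unchallenged controls, 0 of the 8 and 0 of all genes (0%) passed, with 0 of the 8 at an unadjusted p under 0.05 (2.90% of all genes) and 0 by DESeq2 (0.0890% of all genes). Here Ltc4s alone did not overlap, on the lower side, where 3.33% of all genes lay (3.26% on the higher side).

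**Figure D3:**
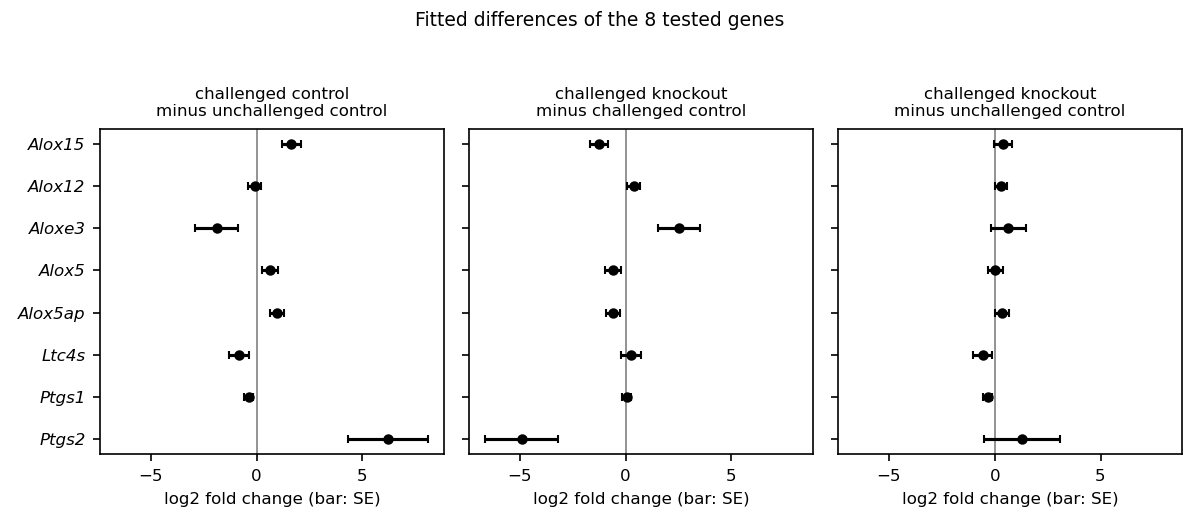
Log2 fold changes (points) with their SE (bars) for the 8 tested genes in the 3 comparisons. None passed over all genes, and the widest bars belong to Ptgs2, whose values in the first 2 comparisons rest on challenged control 1.

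The rest of the eicosanoid pathway was described by 8 lists with 93 entries, of which 84 were in the table and 70 were tested. By the edgeR quasi-likelihood test 0 of the 70 passed in any of the 3 comparisons, with 12, 13 and 3 at an unadjusted p under 0.05, where 12.4%, 8.49% and 2.90% of all genes had one. DESeq2 called Ptger3, Cyp4f18 and Cysltr2 with challenge, Cyp4b1 between knockouts and controls under challenge, and none in the last comparison. Cysltr2, a cysteinyl leukotriene receptor that is outside the naming rule and named after its values were seen, had 99, 15 and 7 counts in challenged controls 1 to 3, and its log2 difference of 3.40 was as low as 1.28 with a library left out. The median log2 difference of the 70 was -0.09 with challenge and 0.10 with genotype, against -0.01 and 0.00 for all genes tested.

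Upstream of the 9 genes, phospholipases A2 release arachidonic acid from membranes, and 11 of 19 listed were tested, 4 with a log2 difference above 0 with challenge and 7 below (median -0.40). Pla2g4a, the cytosolic enzyme and genomic neighbour of Ptgs2, was at 65.6 ± 14.8, 77.3 ± 11.7 and 64.7 ± 4.56 CPM (means of 3 pools with their SD, here and in the following in the order unchallenged controls, challenged controls and challenged knockouts) and thus did not share the excess of Ptgs2 in challenged control 1, where it was at 85.5 CPM against 82.4 CPM in challenged control 3. Pla2g7, which hydrolyses platelet-activating factor, was at 38.0 ± 9.04, 51.3 ± 22.3 and 37.4 ± 8.35 CPM. Pla2g12a, a secreted form, had the lowest p of the list: it was at 22.9, 31.7 and 27.8 CPM in unchallenged and 16.2, 19.5 and 18.0 CPM in challenged controls, without overlap (log2 -0.62, SE 0.20, adjusted p = 0.216); the skeletal muscle sums were lower in the same challenged controls, and their part was not tested.

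Downstream of the cyclooxygenases, 14 of 16 enzymes and transporters were tested, 4 above and 10 below 0 with challenge (median -0.40). The abundant ones were Akr1b3, an aldose reductase that can make prostaglandin F, at 185 ± 21.0, 145 ± 15.2 and 165 ± 35.6 CPM, and the exporter Abcc4 at 131 ± 13.1, 115 ± 12.4 and 123 ± 13.5 CPM. Slco2a1, which takes prostaglandins back up, was at 47.1, 60.2 and 34.4 CPM in unchallenged and 114, 59.3 and 61.0 CPM in challenged controls (log2 0.73, SE 0.31, adjusted p = 0.379), with challenged control 1 again the highest. Of 9 prostanoid receptors 8 were tested, 4 above and 4 below 0 (median 0.01). Ptger4, a prostaglandin E2 receptor, was at 21.2 ± 2.96, 33.9 ± 8.83 and 22.8 ± 1.81 CPM, and Ptgfr, the prostaglandin F receptor, at 23.4 ± 3.85, 15.7 ± 7.82 and 17.2 ± 12.8 CPM. Ptger3, another prostaglandin E2 receptor, was at 4.92, 1.45 and 2.83 CPM in unchallenged and 0.804, 1.08 and 0.684 CPM in challenged controls, without overlap. Its log2 difference of -1.83 (SE 0.48) had an adjusted p of 0.148, and by DESeq2 it was lower (log2 -1.81, adjusted p = 0.0159). The muscle sums were also lower in challenged controls. Within the unchallenged controls, however, they ran in the reverse order of Ptger3 (763, 3130 and 1548 CPM), and their part was not tested.

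On the leukotriene side, 8 of 10 converting genes were tested, 4 above and 4 below 0 with challenge (median -0.02). Cotl1, an actin-binding partner of Alox5, was at 170 ± 46.0, 231 ± 44.0 and 210 ± 57.5 CPM, and Dpep1, a dipeptidase that cleaves leukotriene D4, at 188 ± 25.9, 169 ± 47.5 and 177 ± 26.5 CPM. Cyp4f18, which inactivates leukotriene B4 in neutrophils, stood at 6.33, 3.64 and 3.15 CPM in unchallenged controls, 23.0, 15.2 and 7.87 CPM in challenged controls and 7.75, 6.31 and 3.03 CPM in challenged knockouts. The challenged controls lay above both other groups without overlap. T cell marker sums did so too, at 12.8 to 20.5, 77.0 to 161 and 22.9 to 30.7 CPM in the 3 groups. Neutrophil sums did not: they were 307 CPM in knockout library 1 and 114 CPM in challenged control 2. The part of either cell type in the Cyp4f18 values was not tested. With challenge the log2 difference was 1.81 (SE 0.48, adjusted p = 0.143), and it passed with the replicate block (1.75, adjusted p = 0.0206) and by DESeq2 (1.83, adjusted p = 0.00446). Against the challenged controls the knockouts differed by -1.43 (SE 0.47, adjusted p = 0.455).

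Receptors for leukotrienes and hydroxy fatty acids had the largest list median with challenge among the 8 lists, 0.69, with 7 of 8 tested genes above 0 and 5 not overlapping on the higher side (7.21% of all genes); between knockouts and controls under challenge 7 of 8 were below 0 (median -0.39). These counts share the challenged controls, and 0 of the 8 receptors passed the edgeR quasi-likelihood test in either comparison. Ltb4r2, the low-affinity receptor of leukotriene B4, was at 12.3, 19.0 and 20.9 CPM without and 26.4, 26.3 and 29.8 CPM with challenge in controls, and Ltb4r1, the high-affinity one, at 9.26, 15.4 and 11.8 CPM and at 22.3, 22.3 and 15.5 CPM. Both were higher without overlap, at log2 0.66 (SE 0.25, adjusted p = 0.307) and 0.72 (SE 0.27, adjusted p = 0.299). Gpr132, a receptor of oxidised fatty acids, was at 3.401, 2.34 and 2.05 CPM in unchallenged and 44.2, 5.87 and 4.96 CPM in challenged controls (log2 2.82, SE 0.79, adjusted p = 0.167). Its difference was 1.07 without challenged control 1, the library that holds the Ptgs2 excess and the highest level of Cysltr2 and Fpr2 as well.

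Of the epoxygenase and epoxide hydrolase genes 8 of 10 were tested, 1 above and 7 below 0 with challenge (median -0.26). Ephx1, an epoxide hydrolase, was at 109 to 209, 83.8 to 143 and 115 to 149 CPM in the 3 groups, and Ephx3, another, at 49.4 ± 6.76, 61.1 ± 9.40 and 52.9 ± 7.77 CPM. Cyp4b1, a cytochrome P450 of the ocular surface that makes hydroxy derivatives of arachidonic acid, stood at 17.7, 15.6 and 16.7 CPM in unchallenged controls, 8.35, 10.8 and 11.2 CPM in challenged controls and 14.0, 19.6 and 24.2 CPM in challenged knockouts. The challenged controls were below both other groups without overlap, as they were for the skeletal muscle sum. Corneal epithelium sums had the same order as Cyp4b1 within the challenged controls and within the knockouts, but not within the unchallenged controls, and neither list's part was tested. Cyp4b1 had a log2 difference for challenge of -0.72 (SE 0.23, adjusted p = 0.224) and of 0.93 (SE 0.23, adjusted p = 0.342) between knockouts and controls under challenge. By DESeq2 the latter passed (log2 0.92, adjusted p = 0.0298).

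The acylceramide list, the substrate side of Alox12b and Aloxe3, had 12 of 17 genes tested, 7 above and 5 below 0 with challenge (median 0.07). Its abundant genes were Elovl1, a fatty acid elongase, at 130 ± 22.7, 142 ± 9.69 and 173 ± 49.3 CPM, and Slc27a4, a fatty acid transporter, at 126 ± 49.4, 124 ± 38.6 and 151 ± 34.8 CPM. Cers3, the ceramide synthase of very long chains, was at 84.8, 78.2 and 84.5 CPM in unchallenged and 116, 99.0 and 97.0 CPM in challenged controls, without overlap (log2 0.33, SE 0.14, adjusted p = 0.361). These 3 genes were thus at 75.3 CPM or more in every library, while Alox12b stayed at no more than 2 counts. Elovl4, singled out after its values were seen, was at 150 CPM in knockout library 1 and at most 1.05 CPM in the 8 others, the same library that stood apart in meibomian gland markers.

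**Figure D4:**
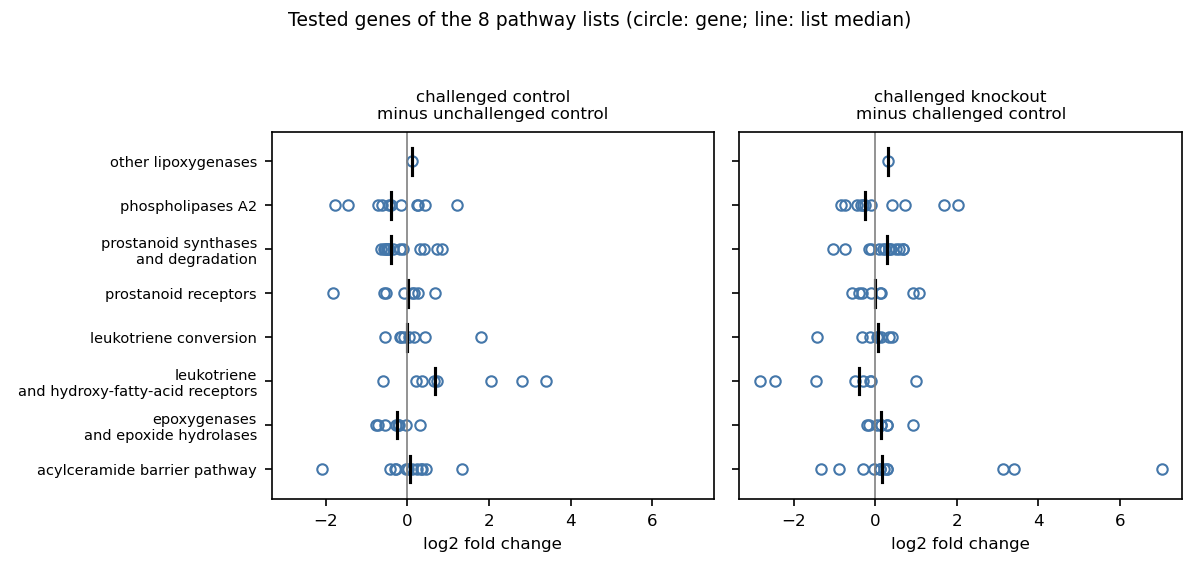
Log2 fold change (horizontal axes) of each tested gene (circles) in the 8 pathway lists, with list medians (lines), for challenge in controls (left) and genotype under challenge (right). No gene passed over all genes by edgeR; the receptor list has its median at 0.69 on the left and -0.39 on the right.

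**Figure D5:**
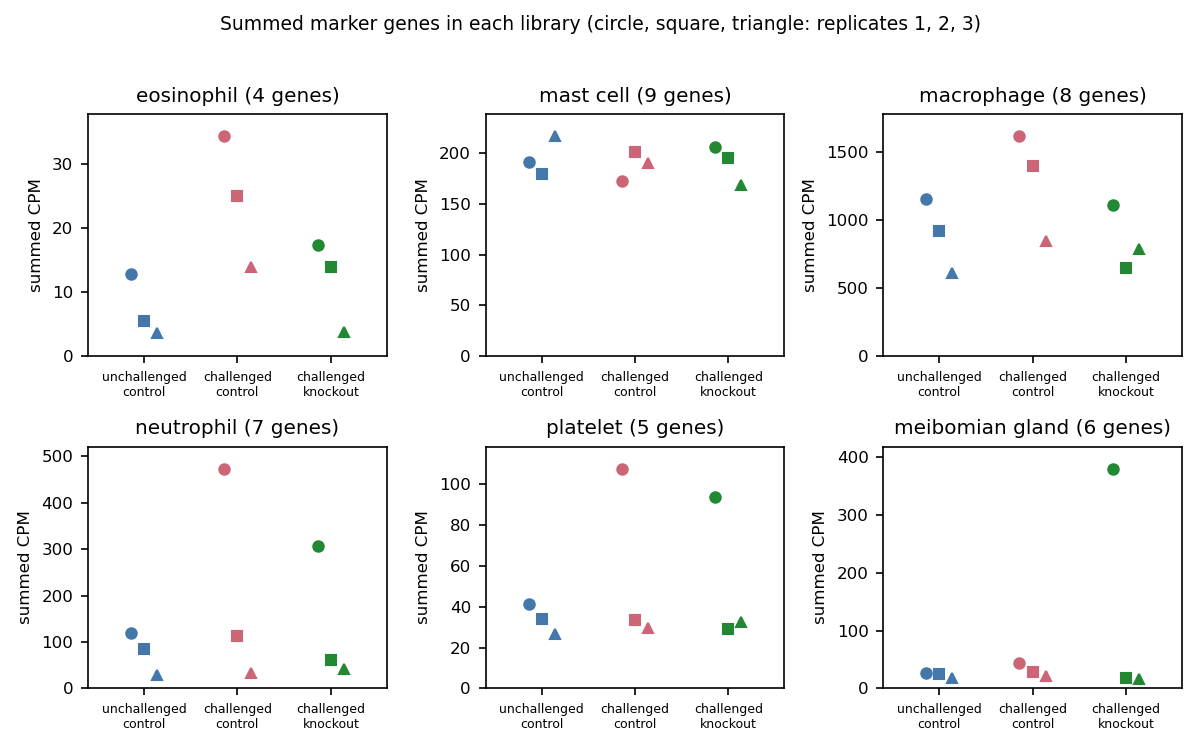
Summed CPM of 6 marker lists (vertical axes, from 0) in each library of the 3 groups (horizontal axes); each point is 1 library. Challenged control 1 and knockout 1 are highest for neutrophil markers and, mainly through Ppbp, platelet markers. Knockout 1 stands apart for meibomian gland, and mast cell sums, mostly Kit, lie between 169 and 217 CPM.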

How the data were processed

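Per the submitters' processing notes, HISAT2, Bowtie2 and DESeq2 were used with the mouse build mm39. Not given in the sources used here are versions, the counting program, its annotation and its strand setting. Deposited by the authors were raw counts of reads per gene symbol, unnormalized, for 20603 genes in 9 libraries.

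All 9 libraries entered 1 edgeR 4.0.16 quasi-likelihood fit (R 4.3.3, limma 3.58.1; TMM factors, filterByExpr, no block), which tested 15613 genes against an adjusted p of 0.05. CPM values are TMM-scaled. Exon lengths were GENCODE's for GRCm38. DESeq2 1.42.0, RLE factors, no count filter, a replicate block, the 2 groups compared alone and leaving out each library were alternatives. Same-numbered libraries of the 2 control groups deviated together (correlations 0.458, 0.245 and 0.488). They were taken as paired by number, from the data and not from the labels. Knockouts were not taken as paired, with correlations of 0.318, -0.0889 and 0.334 to unchallenged and 0.339, -0.147 and 0.334 to challenged controls. For numbers 1 and 3 these exceed the 0.245 accepted for control libraries 2. Libraries of different number were not compared, so the pairing is uncertain. No library was a copy of another of its group, and libraries of different groups were not checked for this. Pools of mice are the replicates, and p-values set a difference between groups against the spread between pools. The edgeR fit as reported left the pairing out. The fit was tested on simulated data.

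The members and lists were chosen with earlier results of these data known. Named list genes were all that passed by edgeR, or else the 2 of highest mean CPM and the one with the lowest p with challenge; the text says so where a gene was picked otherwise. Likeness was ranked over 14157 genes.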

Additional observations from a re-analysis of the deposited data

How the results depend on the processing

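Of the 9 genes, the number past the threshold with challenge was 0 in the edgeR fit as reported, 1 by DESeq2 (Alox15) and 2 with the replicate block in the 2 control groups alone (Alox15 and Alox5ap), a fit added once the data had been seen; it was 0 with RLE factors, no count filter, the replicate block over all 9 libraries, the 2 groups alone, and in all 9 fits that left out a library. In the other comparisons it was 0 under every alternative run. Over all genes, the 10 calls with challenge became 770 by DESeq2, 20 with no count filter, 267 with the replicate block, 1 with the 2 groups alone, 476 with the block in those groups alone, and 0 to 121 with a library left out (0 without unchallenged control 2 or 3, 121 without unchallenged control 1). With genotype 0 became 242 by DESeq2 and 22 with the replicate block, and between challenged knockouts and unchallenged controls 0 became 14 by DESeq2. The cause was not tested.

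Of 24 differences of the 8 tested genes, 5 turned sign with a library left out, and so did 77 of 210 of the list genes, Alox12e with challenge among them (-0.25 to 0.48). With challenge it was Alox12 (range -0.29 to 0.21). With genotype they were Ptgs2 (-5.74 to 0.89) and Ptgs1 (-0.13 to 0.21), and between challenged knockouts and unchallenged controls Alox5 (-0.30 to 0.20) and Alox15 (-0.23 to 0.67). Depth limits Alox12b and Aloxe3, whose libraries hold 0 to 22 counts, and 3 pools per group limit the rest.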
